A study of Homo sapiens with 6 samples.

Results

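The olfactory receptor genes of chromosome 11 were taken as the protein-coding genes of GENCODE version 44, on hg19 coordinates, whose symbol was OR followed by digits, letters and digits. The rule found 171 of the 1317 protein-coding genes of the chromosome, and 6 more with a receptor symbol that ends in P lay outside it. Of the 171 genes, 55 were class I receptors, families 51 to 56, and 116 were class II receptors. The peaks came from 6 bulk ATAC-seq libraries of GM12878, an established B-lymphoblastoid cell line. By the labels all cells were fixed in 1% PFA, lysed with 0.05% Igepal CA-630, transposed for 30 min at 37 degrees and reverse crosslinked at 65 degrees. The study's methods give that lysis for the protocol without purification and a standard transposition for the SDS protocol, so a difference in lysis between protocols cannot be told apart from the buffer. In 2 libraries the reverse crosslinking buffer contained SDS, in 2 it was free of SDS, and in 2 the SDS-free buffer went into PCR with no DNA purification. No untransposed or unfixed control was among them, and nothing in the labels says that replicates came from separate cultures, so p-values measure the spread between these libraries, which may be technical.

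Olfactory receptors are G protein-coupled receptors that detect odorants on the cilia of olfactory sensory neurons. Each such neuron uses a single receptor allele, and the other receptor genes stay silent in closed chromatin, and in most other tissues the genes are largely silent. The genes stand in tandem clusters, and the receptor is usually encoded by a single exon, with non-coding exons upstream. Class I receptors resemble those of fish, and class II receptors are found in land vertebrates. ATAC-seq inserts adapters where DNA is open, so a peak is a stretch where insertions pile up over the local background.

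Peaks were counted where they overlapped a gene body or the 1 kb on either side. Peaks of all libraries that touched were merged, and each merged region is called a site. There were 23 sites in the windows of 13 receptor genes, OR52K1, OR51D1, OR51B5, OR51Q1, OR52H1, OR52N2, OR56A1, OR52W1, OR2AG2, OR4S1, OR4C16, OR4S2 and OR5J2. The other 158 genes had none in any library. The share with a peak in at least 1 library was 7.60%, beside 70.2% of the 1146 other protein-coding genes of the chromosome. In all 6 libraries 4 receptor genes had a peak, or 2.34%, beside 55.4% of the other genes. Gene length enters these shares, since the median receptor gene was 1074 bp long and the median other gene 21462 bp.

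In every library 5 sites were called, and 3 more in 5 libraries. Some of these also lie in models of other genes, as given below. The sequences of the sites are shown because no other site in the receptor windows was called in as many libraries. Each is the 300 bases around the summit of the strongest peak, on the + strand of GRCh37 (hg19). The OR52K1 site is left out because most of its bases are untranslated exon. Capitals mark matches, on either strand, to EBF (CCCNNGGG), RUNX (TGTGGTT) or LHX (TAATTA) letters.
OR4C16, chr11:55340077-55340376: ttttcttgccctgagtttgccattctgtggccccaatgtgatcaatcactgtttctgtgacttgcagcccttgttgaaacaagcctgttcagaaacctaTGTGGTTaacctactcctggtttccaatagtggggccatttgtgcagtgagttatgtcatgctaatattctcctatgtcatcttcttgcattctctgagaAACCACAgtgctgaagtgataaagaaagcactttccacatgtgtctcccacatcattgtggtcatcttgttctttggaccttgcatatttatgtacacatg
OR51B5, intron, first site, chr11:5361167-5361466: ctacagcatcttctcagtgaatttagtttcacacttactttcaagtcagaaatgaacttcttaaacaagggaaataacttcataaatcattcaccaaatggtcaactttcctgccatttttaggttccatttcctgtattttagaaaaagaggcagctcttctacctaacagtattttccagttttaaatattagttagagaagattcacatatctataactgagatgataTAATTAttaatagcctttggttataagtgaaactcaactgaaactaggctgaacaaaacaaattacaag
OR51B5, intron, second site, chr11:5521781-5522080: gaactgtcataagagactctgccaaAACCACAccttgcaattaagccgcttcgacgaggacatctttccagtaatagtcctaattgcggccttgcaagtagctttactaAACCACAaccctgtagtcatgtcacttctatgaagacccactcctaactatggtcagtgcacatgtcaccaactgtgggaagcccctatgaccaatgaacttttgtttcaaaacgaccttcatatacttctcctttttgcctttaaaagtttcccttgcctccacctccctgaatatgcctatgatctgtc
OR52N2, chr11:5829660-5829959: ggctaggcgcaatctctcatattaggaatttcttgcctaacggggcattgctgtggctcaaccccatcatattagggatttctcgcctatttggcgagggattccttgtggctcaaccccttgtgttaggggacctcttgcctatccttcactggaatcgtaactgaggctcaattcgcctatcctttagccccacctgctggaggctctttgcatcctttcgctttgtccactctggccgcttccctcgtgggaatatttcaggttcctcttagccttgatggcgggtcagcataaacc
OR51D1, chr11:4658089-4658388: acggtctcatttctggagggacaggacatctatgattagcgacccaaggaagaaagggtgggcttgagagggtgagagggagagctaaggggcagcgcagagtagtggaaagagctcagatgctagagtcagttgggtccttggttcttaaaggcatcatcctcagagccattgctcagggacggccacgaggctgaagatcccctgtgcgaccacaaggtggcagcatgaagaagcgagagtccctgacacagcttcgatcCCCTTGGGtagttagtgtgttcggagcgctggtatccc
OR4S1, chr11:48329347-48329646: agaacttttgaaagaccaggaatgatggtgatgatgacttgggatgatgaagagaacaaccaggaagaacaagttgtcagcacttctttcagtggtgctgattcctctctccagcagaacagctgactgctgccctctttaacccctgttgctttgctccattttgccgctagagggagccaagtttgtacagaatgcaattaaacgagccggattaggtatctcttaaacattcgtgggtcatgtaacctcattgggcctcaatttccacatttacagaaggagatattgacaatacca
OR52H1, chr11:5569346-5569645: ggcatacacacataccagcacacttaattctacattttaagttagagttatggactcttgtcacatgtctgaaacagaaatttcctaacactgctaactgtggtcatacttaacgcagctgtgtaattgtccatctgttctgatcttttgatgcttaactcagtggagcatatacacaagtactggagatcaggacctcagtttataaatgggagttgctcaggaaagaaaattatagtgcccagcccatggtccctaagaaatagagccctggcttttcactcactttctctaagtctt
The OR52N2 and OR51D1 stretches held 10 CpG dinucleotides each, the OR4C16 stretch and the first OR51B5 stretch held 0. Matches to RUNX stood in the OR4C16 sequence and in the second OR51B5 sequence, an EBF match in that of OR51D1 and an LHX match in the first OR51B5 sequence.

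Within the coding exon of OR4C16, a class II receptor gene (chr11:55339604-55340536, + strand), lay the site with the highest fold enrichment over local background. The number of reads over its summit, solved from the deposited fold and p, was 36 and 23 in the SDS libraries, 36 and 29 in the SDS-free libraries and 26 and 29 without purification. The fold enrichment ranged from 7.18 to 10.3 over the 6 libraries. The summit lay 623 bp downstream of the annotated start, and the nearest start of a protein-coding gene outside the receptor family, that of TRIM51, was 310546 bp away. No other receptor gene had a peak on its coding sequence in all 6 libraries. The only further one with such a peak was OR5J2, in SDS-free replicate 1 with 11 reads.

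Upstream of OR52N2 (gene at chr11:5830154-5842713, + strand), a class I receptor gene, a site at chr11:5829661-5830243 was called in all libraries, with its strongest summit 344 bp before the start. It had 18 and 13 reads with SDS, 18 and 15 in the SDS-free libraries and 16 and 15 without purification, the narrowest range of the sites called everywhere. The same DNA lies in the annotated body of TRIM5, a restriction factor that binds retroviral capsids, whose nearest start was 63778 bp away. A peak in an intron of OR52N2, at chr11:5836996-5837660, was called in 3 libraries with 15 to 20 reads, and another in 2 libraries with 17 and 18.

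OR51D1 (chr11:4658707-4664290, + strand) is a class I receptor gene with a site 468 bp upstream of its start. It had 17 reads in SDS replicate 1 and no peak in SDS replicate 2. The SDS-free libraries had 11 and 21 reads, those without purification 18 and 20. OR52H1 (chr11:5565719-5569770, − strand) had a site in its first kilobase, with the strongest summit 274 bp after a start, inside an intron. The same DNA lies in the annotated body of the read-through gene ENSG00000239920. Reads were 23 and 17 with SDS, 20 in SDS-free replicate 1, and 27 and 18 without purification, and SDS-free replicate 2 had no peak there. That library had the fewest peaks of all.

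The site of OR52K1 (chr11:4503876-4514727, + strand) lay at the far end of the gene model, 10740 bp from its start, in an exon outside the coding sequence that a long non-coding RNA, ENSG00000291144, also overlaps. It had 25 and 26 reads with SDS, 22 and 10 in the SDS-free libraries and 20 and 21 without purification, so that SDS-free replicate 2 stood below the rest. Beyond the 3′ end of OR4S1 (chr11:48327775-48328704, + strand), a class II receptor gene, a site was called 793 bp downstream of the gene body. It had 13 and 13 reads with SDS, 17 in SDS-free replicate 1 with no peak in replicate 2, and 18 and 18 without purification. An exon of OR56A1 outside the coding sequence held a site in 3 libraries, 1 of each protocol, with 18 reads with SDS, 11 in the SDS-free library and 12 without purification.

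OR51B5 held 10 of the 23 sites, including 1 shared with OR51Q1. Its coding sequence is that of an ordinary receptor, but its annotated body (chr11:5324674-5526882, − strand) is 202209 bp long, the longest of the 171, and runs past other receptor genes. The read-through gene ENSG00000239920 and long models of HBE1 and HBG2, which encode the embryonic and a fetal beta-like globin, overlap the same stretch, so these peaks cannot be told apart by gene. The intron site at chr11:5360826-5361549 had the highest reads of any receptor site, 48 and 34 with SDS, 30 and 29 in the SDS-free libraries and 36 and 42 without purification. It lay 3437 bp downstream of the coding start. The site at chr11:5521648-5522185 had 35 and 25 reads with SDS, 24 and 20 in the SDS-free libraries and 35 and 25 without purification. It was 157177 bp from the coding sequence and 4903 bp from a start of HBE1. Another, at chr11:5401795-5402370, was called in 4 libraries with 14 to 20 reads, and the one at chr11:5358415-5358802, in 2 libraries with 20 and 21. The remaining sites of OR51B5 were called in 1 or 2 libraries with 10 to 21 reads at the summit.

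**Figure D1:**
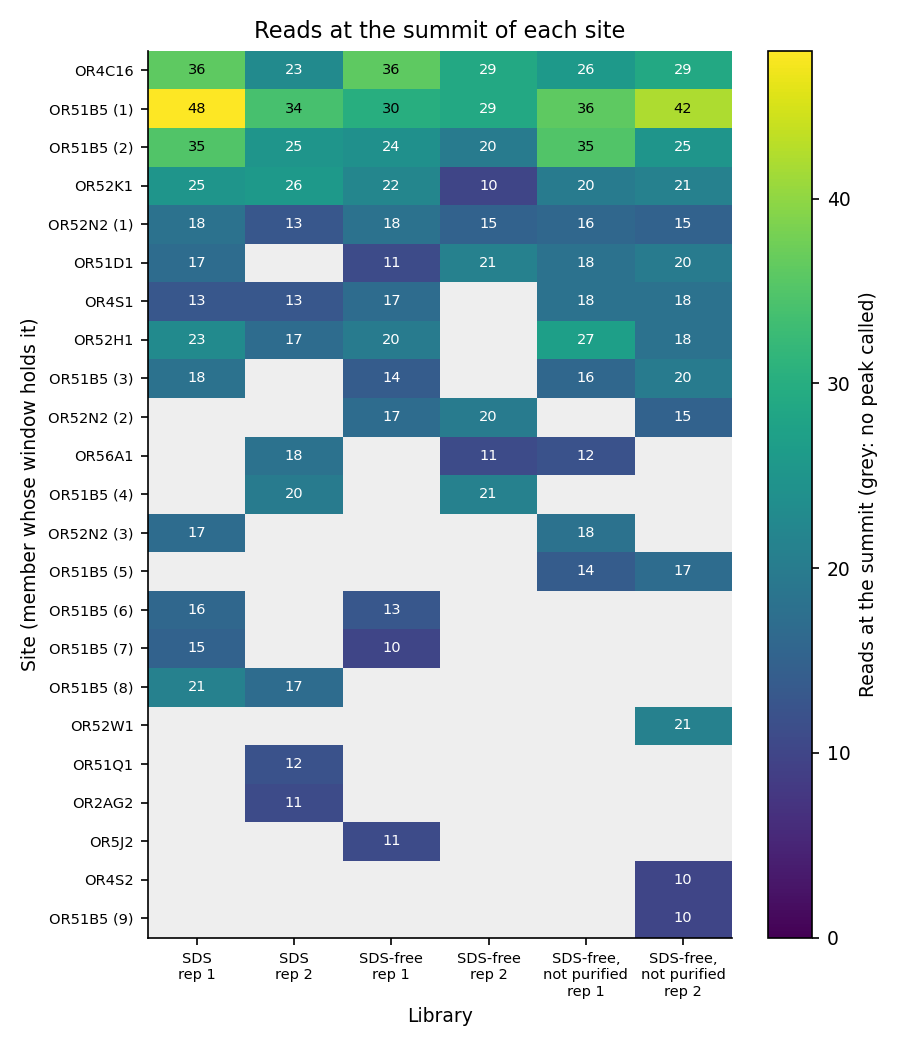
Reads at the summit of each of the 23 sites (rows, named by the receptor gene, numbered where a gene has several) in each of the 6 libraries (columns), with grey where no peak was called. The first 5 rows are filled in every library and 6 rows in a single library, and OR51B5 names more rows than any other gene.

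The other sites were called in a single library each. OR52W1 had 21 reads 903 bp downstream, OR51Q1 had 12 reads 975 bp upstream and OR2AG2 had 11 reads 413 bp upstream. OR4S2 had 10 reads in an intron. Of the 23 sites, 13 lay in introns, 4 upstream, 2 downstream, 2 in exons outside the coding sequence and 2 in coding exons. None had its summit within 1 kb of a start of a protein-coding gene outside the receptor family, and 18 were over 10 kb from one. Within 1 kb of a receptor gene's own start lay 8.

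Receptor genes rarely had a peak at their start. In the 6 libraries 5, 6, 5, 3, 4 and 4 receptor genes had a peak within 1 kb of a start, in the order of the SDS, SDS-free and unpurified libraries. The mean was 2.63% ± 0.613 (SD, n = 6 libraries) of the receptor genes and 52.9% ± 1.23 of the other protein-coding genes of the chromosome. The difference of 50.2 percentage points held in 6 of 6 libraries (exact two-sided sign-flip permutation test over libraries, p = 0.03125, the smallest that 6 libraries can give, and 0.0417 after Benjamini-Hochberg adjustment over 4 tests). In any library 8 receptor genes had such a peak, or 4.68%, beside 59.2% of the others. Only OR52N2 and OR4C16 had it in all 6, or 1.17%, beside 45.5%. A gene counted if any of its starts had a peak. The 171 receptor genes had 208 starts and the 1146 other genes had 5071, so other genes had more starts at which to count. The part of this in the difference was not tested. Starts of transcripts annotated as protein coding were used, and in 77 of the 171 receptor genes every such start was the coding start itself. A start upstream of those, if there is one, was not in view. Of these 77 genes 3 had a peak at the start in at least 1 library, and of the other 94 genes 5 had.

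**Figure D2:**
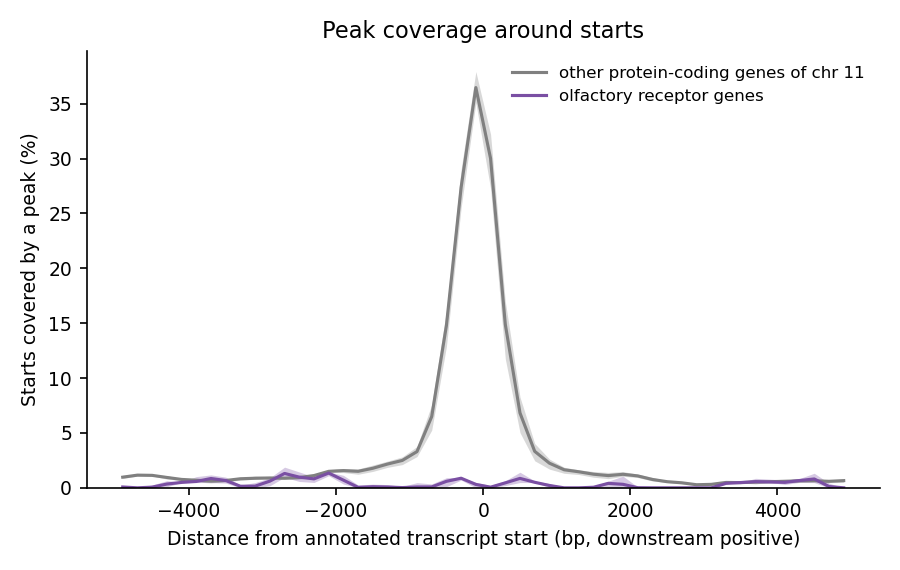
Share of genes' starts covered by a peak (y axis, percent) by distance from the start (x axis, bp), as the mean of 6 libraries with a band from the lowest to the highest library. The other genes of chromosome 11 reach 36.5% just upstream of the start, and the receptor genes reach at most 0.876% within 1 kb of the start and 1.35% between −2200 and −2000 bp.

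Receptor genes elsewhere gave low shares too. Of 228 olfactory receptor genes on other chromosomes, 4 had a peak at a start in at least 1 library, 1.75%, and the mean over libraries was 1.24% ± 0.330 (SD, n = 6). The genes of chromosome 11 were 1.39 percentage points above these, in all 6 libraries (exact sign-flip permutation test, p = 0.03125, adjusted 0.0417). On chromosome 11 the share rested on 8 genes, and this p does not cover the spread between genes.

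The number of peaks per length differed less. The merged windows covered 1.28 Mb of sequence and the rest of chromosome 11 129.8 Mb. Summits in the windows numbered 13 and 12 with SDS, 13 and 9 in the SDS-free libraries and 12 and 14 without purification. That made 9.50 ± 1.35 summits per Mb (SD, n = 6 libraries), against 12.9 ± 1.01 in the rest. The difference was −3.40 per Mb, or 1.36-fold lower in the windows, and it had the same sign in 6 of 6 libraries (exact sign-flip permutation test, p = 0.03125, adjusted 0.0417). With windows of the coding sequence plus 1 kb, an alternative added after the data were seen, the density was 5.22, or 2.47-fold lower than the rest (exact permutation p = 0.03125, adjusted 0.0625). Without OR51B5 it was 6.89, or 1.87-fold lower (exact permutation p = 0.03125). The window of OR51B5 by itself had 22.9 ± 5.06 summits per Mb.

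The rest of the chromosome is itself made of unlike kinds of sequence. Windows of other protein-coding genes, outside those of the receptors, had 17.8 ± 1.18 summits per Mb, and sequence outside the windows of all protein-coding genes had 7.85 ± 0.837. Receptor windows that shared no base with the window of another protein-coding gene had 5.19 ± 0.809. The last 2 values were not set against each other in a test.

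**Figure D3:**
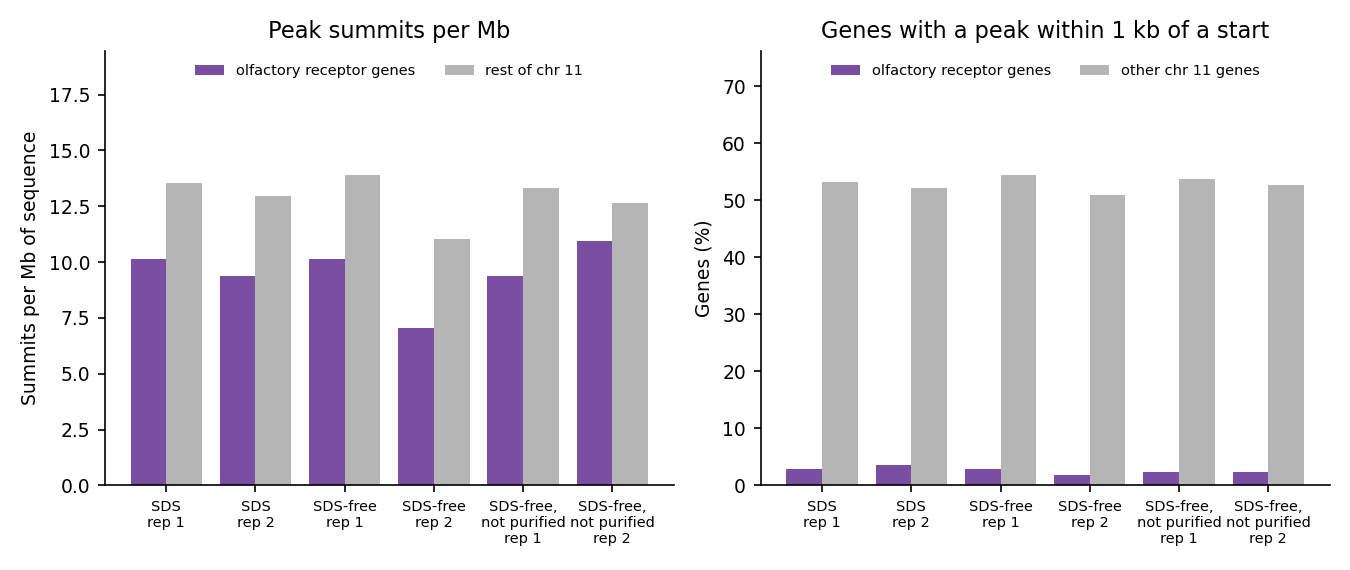
Left, peak summits per Mb in the windows of the receptor genes (purple) and in the rest of chromosome 11 (grey) for each library. Right, the percent of receptor genes and of other protein-coding genes with a peak within 1 kb of a start, where the receptor genes average 2.63% and the others 52.9%.

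Peaks at the receptor genes were also lower. The median reads at the summit were 17 to 20 over the libraries, mean 18.25, against 20 to 23, mean 21.7, for the other peaks of the chromosome. The difference of −3.42 reads held in 6 of 6 libraries (exact sign-flip permutation test, p = 0.03125, adjusted 0.0417), but with windows of the coding sequence plus 1 kb it was −1.08 reads (exact permutation p = 0.5625). Of the receptor window peaks 69.1% ± 10.8 were called again in the other library of the same protocol, against 77.8% ± 5.90 of the others. This difference of −8.68 percentage points was seen in 5 of 6 libraries and did not pass the threshold (exact permutation p = 0.0625, adjusted 0.0625). Unpurified replicate 1 went the other way. The values of both libraries of a protocol rest on the same overlap of their lists, so the 6 values are not independent and this p is too small.

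**Figure D4:**
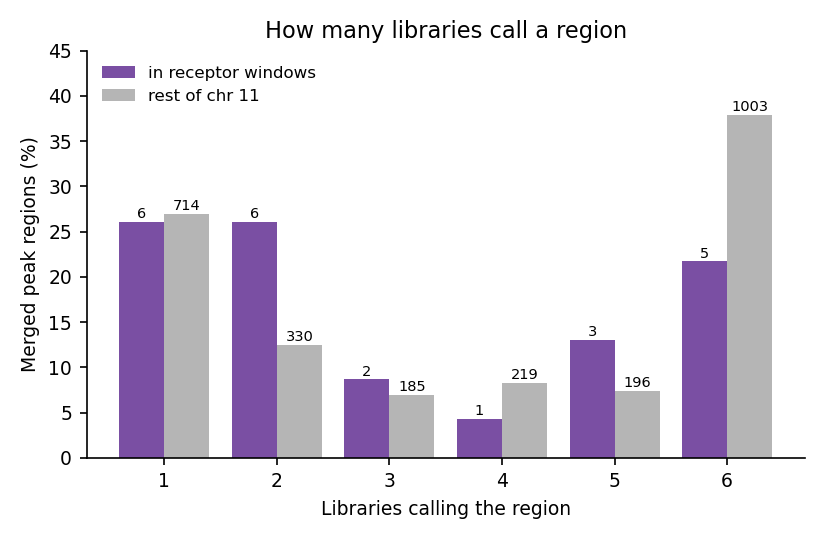
Percent of merged peak regions (y axis) called in 1 to 6 libraries (x axis), for the 23 sites in receptor windows (purple) and the 2647 other regions of chromosome 11 (grey), with the number of regions over each bar. Regions called in all 6 libraries make 21.7% of the receptor sites and 37.9% of the others.

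Between protocols, the number of peaks in receptor windows averaged 12.5 ± 0.707 with SDS, 11 ± 2.83 in the SDS-free buffer and 13 ± 1.41 without purification (SD, n = 2 libraries each). The SDS-free libraries had 1.5 fewer than the SDS libraries (exact permutation p = 1), the unpurified libraries 0.5 more than the SDS libraries (exact permutation p = 1) and 2 more than the SDS-free libraries (exact permutation p = 0.667). After adjustment over the 3 pairs each p was 1. An exact permutation test of 2 libraries against 2 cannot go below p = 0.33, so no difference of any size could pass the threshold of 0.05.

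Most sites lay in the windows of class I genes, and 10 of the 23 in the long window of OR51B5. Of the 55 class I genes 8 had a site, or 14.5%, and of the 116 class II genes 5 had, or 4.31%. Of the other protein-coding genes of the chromosome, 70.2% had a peak in their window in at least 1 library. By family, 4 of 27 OR52 genes, 3 of 22 OR51 genes, 1 of 6 OR56 genes, 3 of 25 OR4 genes, 1 of 35 OR5 genes and 1 of 5 OR2 genes had a site. None of the 23 OR8 genes or the 16 OR10 genes had. These counts are a description, since the same libraries read all genes, neighbouring gene models overlap and gene lengths were not matched.

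The genes lay in 11 clusters, taken as runs with gaps of at most 500 kb. All 55 class I genes stood in the cluster from OR52B4 to OR52W1 (chr11:4388493-6221416), which held 18 of the 23 sites and 14.5 ± 1.64 summits per Mb over its whole length (SD, n = 6 libraries). That cluster also holds 19 other protein-coding gene models, among them the beta-globin genes and the TRIM genes. The 48 genes from OR4A16 to OR5AK2 (chr11:55110677-56757318) had 3 sites, and the cluster had 8.10 ± 1.06 summits per Mb. The 8 genes from OR2AG2 to OR2D3 had 1 site in a cluster with no other protein-coding gene. Over the libraries this cluster had 6.40 to 25.6 summits per Mb, a mean above that of the rest of the chromosome. It is 0.156 Mb long, so these values rest on few summits. In the cluster of 13 genes from OR9Q1 to OR5B21 there were 0 sites and 1.38 ± 1.69 summits per Mb. The 22 genes from OR6X1 to OR8A1 had 0 sites in a cluster with 6.64 ± 1.27 summits per Mb. The 8 genes from OR5AN1 to OR10V1 also had 0 sites, while their cluster had 23.5 ± 3.85 summits per Mb and holds OSBP, PATL1 and STX3, which are no receptor genes.

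**Figure D5:**
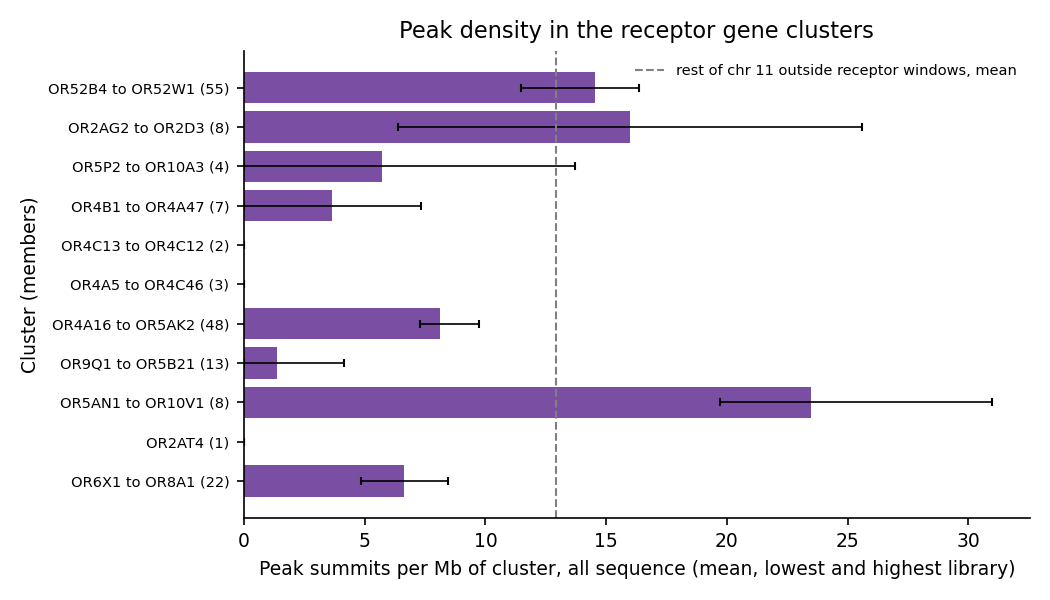
Peak summits per Mb over the whole length of each of the 11 receptor gene clusters (members in brackets), as the mean of 6 libraries with a line from the lowest to the highest library. The dashed line is the mean of the rest of the chromosome, 12.9. The 3 clusters of 1, 2 and 3 genes have no summit at all. They are 0.0151, 0.0301 and 0.105 Mb long, and at such lengths 12.9 per Mb would also give few or no summits.

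Short reads that fit several places are lost to quality filters, so the share of 75-base stretches that occur only at 1 place in the genome was counted. It was 97.1% in the receptor windows and 96.8% in the rest of the chromosome, with 96.1% in the receptor coding sequences and 98.5% within 1 kb of other genes' starts. Of the receptor genes, 7 had a window under 90%, the lowest being OR4A47 at 83.7%. Coding sequences of single genes went lower, down to 50.6% for OR8B2 and OR8B3. Only exact repeats were counted, so stretches with a near-identical copy elsewhere passed as unique. Counting only unique stretches, the density was 9.79 against 13.3 per Mb.

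The median GC of the accessible sites was 42.7% and their median CpG count in 300 bases was 2, beside 47.7% and 4 over the 2647 other regions of the chromosome. The receptor windows as a whole had 38.4% GC and the rest of the chromosome 41.6%. Letters of 6 motifs were searched on both strands of the same 300 bases. EBF letters were in 21.7% of the sites and 13.1% of the other regions, and RUNX letters in 17.4% and 13.3%. ETS letters (AGGAAGT) were in 13.0% and 11.9%, the CTCF core (CAGNGGGC) in 8.70% and 9.44% and LHX letters in 8.70% and 7.48%. AP-1 letters (TGANTCA) were in 4.35% of the sites, that is 1 site, and 18.2% of the other regions. With 23 sites these shares are a description. Each motif was searched in a single form of letters, so sites that hold another form of it were not counted.

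Genes that serve olfactory receptors in neurons were read in the same way, by a peak within 1 kb of a start. Of 8 genes of olfactory signalling, 3 had a peak in at least 1 library and 2 in all 6, beside 59.2% and 45.5% of the other protein-coding genes of chromosome 11. CNGA4, a subunit of the olfactory cyclic nucleotide-gated channel, had 114 to 134 reads in all 6 libraries, but its nearest start lies 54 bp from a start of FHIP1B. RIC8B, a chaperone and exchange factor for olfactory G protein alpha subunits, had 34 to 48 reads in all 6, and ADCY3, the adenylyl cyclase of the pathway, had 17 and 18 in 2. GNAL, CNGA2, CNGB1, ANO2 and OMP had none. Of the 3 genes of receptor transport, REEP1 had a peak in 1 library with 9 reads, and RTP1 and RTP2 had none. Of the 5 genes of factors known to act in receptor gene choice, 5 had a peak in at least 1 library and 2 in all 6, beside the same 59.2% and 45.5%. EBF1, which is also a B cell transcription factor, had 40 to 47 reads and ATF5 20 to 30 reads in all 6 libraries. KDM1A had a peak in 5 libraries, and LHX2 and LDB1 in 4 each.

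For the label of the cells, 5 of 6 B cell marker genes had a peak at a start in at least 1 library and 1 in all 6, beside 59.2% and 45.5% of the other protein-coding genes of chromosome 11, so the count by itself does little to mark the cell type. MS4A1, which encodes CD20, had 39 to 52 reads in all 6, CD79A had a peak in 4 and CD22 in 3. CD79B and PAX5 each had a peak in 1 library, and BLK in none. Of 6 markers of other cells, the T cell genes CD3D, CD3E and CD3G, the erythroid genes HBB and GATA1 and the olfactory neuron gene OMP, none had a peak at a start in any library. The libraries held 30136 to 38023 peaks. Read totals are not among the data, and the lowest local background implied by the peaks, 1.51 to 1.86 reads, stood in for relative depth. SDS-free replicate 2 had the fewest peaks, and the 9 peaks in receptor windows there were the lowest of any library.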

How the data were processed

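Bulk ATAC-seq peak lists of 6 fixed GM12878 libraries were analysed, 2 for each of 3 reverse crosslinking protocols. Groups and replicate numbers came from the labels. The study's methods and the submitters' processing notes name Bowtie2 version 2.1.0, Picard version 1.79 and MACS2 with a q-value threshold of 0.01, on hg19. For MACS2 no version is given in these sources. The methods say that reads of a condition were merged for peak calling, but 1 list per library is used here. Per the file headers and values, the deposited columns are the authors' own: a score (the −log10 q times 10), a fold enrichment at the summit (a ratio), the −log10 p-value and −log10 q-value, and the summit offset.

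From these, the reads at each summit were solved as the whole number that returns both the fold and the Poisson p, within 0.001 of the −log10 p. Windows were receptor gene bodies plus 1 kb each side, in GENCODE version 44 lifted to GRCh37, the same build as hg19. A peak belonged to a window by any overlap for sites and genes, and by its summit for density. The share of unique 75-mers was counted in GRCh37. Tests took each library as 1 value: an exact two-sided sign-flip permutation test over 6 libraries, adjusted over 4 results, and an exact permutation test of 2 libraries against 2, adjusted over 3. With 2 sign-flipped pairs, the replicate block, p cannot go below 0.5. Genes were named if any library had a peak in their window, with values per library for at most 12 sites, taken by the number of libraries and then by the −log10 q. The members, gene lists, markers, motifs and tests were chosen with earlier results of these data known. A marker gene of the list is not reported here. The depth in reads is unknown, and so is each value's counting error. Procedures were tested on simulated data. Software was Python 3.11.15, NumPy 2.4.6, SciPy 1.17.1, numba 0.67.0, matplotlib 3.10.9 and bedtools 2.31.1. Same-numbered libraries deviated together with r from −0.0172 to 0.0554 over 1008 regions, so numbers were not taken as pairs.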

Additional observations from a re-analysis of the deposited data

How the results depend on the processing

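The lower density and the lower share of genes with a peak at a start kept their direction under every alternative that compared receptor genes with the rest of chromosome 11. Leaving out a library in turn moved the difference in density between −3.74 and −3.28 per Mb, in the start share between −50.5 and −50.0 points, in median reads between −3.9 and −3.1 and in the replicate share between −12.4 and −6.41 points. With 5 libraries the smallest exact p is 0.0625, and the replicate share, which then has 4 values, gave exact permutation p-values of 0.125 and 0.25, so none of these tests could pass. Sites numbered 20 to 23, genes with a peak 11 to 13 and genes with a peak in all libraries 4 to 6. Set against receptor genes of other chromosomes, a different comparison, the start share was 1.39 points higher. Windows of the gene body alone left 8 genes with a peak. Windows of 5 kb each side gave 42 sites, 30 genes and 9 genes in all libraries. Windows of the coding sequence plus 1 kb, chosen after seeing the data like the next 2 settings, gave 7 sites, 7 genes and 1 gene in all libraries, a density difference of −7.69 with adjusted p = 0.0625 (exact permutation) and a difference in reads of −1.08. Leaving out OR51B5, or both genes over 20 kb, left 14 sites each, and the replicate share then differed by −7.51 points. Read against libraries of other protocols, that share differed by −10.6 points. Both had exact permutation p = 0.03125, which is too small because libraries share the overlaps that these shares count. The cause of these changes was not tested.

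The difference between unpurified and SDS libraries turned to −0.5 peaks with the gene body alone and −0.5 with the coding sequence plus 1 kb. Leaving out a library gave −3.5 to 0.5 peaks for SDS-free minus SDS, −0.5 to 1.5 for unpurified minus SDS and 0 to 4 for unpurified minus SDS-free. With the replicate block the differences were −1.5, 0.5 and 2 peaks, each with exact permutation p = 1, and no call changed. At a −log10 q of at least 5, OR52K1 kept 5 libraries, OR51D1 and OR4S1 kept 4 each, the OR52N2 intron site called in 3 libraries kept 2 and the OR56A1 site kept 1 of 3. At that threshold 18 sites, 10 genes and 3 genes in all libraries were left. With each library cut to its 30136 peaks of highest −log10 q, 17 sites, 10 genes and 4 genes in all libraries were left. Read totals are not among the data, and the part of depth in which sites were called was not tested.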

Other observations

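Between the genes of the receptor clusters, sequence outside the windows of all protein-coding genes, 3.77 Mb in all, had 7.92 ± 0.777 peak summits per Mb (SD, n = 6 libraries). The same kind of sequence over all of chromosome 11 had 7.85 ± 0.837. These 2 values lay closer together than the spread between libraries, and were not tested.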
